A study of Mus musculus with 8 samples.

Results

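Semaphorins, plexins and neuropilins form a ligand and receptor system that guides cell movement. In the deposited table of 41730 rows, 31 genes belong to it by symbol: 20 semaphorins, 9 plexins and the neuropilin genes Nrp1 and Nrp2. All rows with such a symbol and no suffix for a further copy were taken. RNA-seq read counts per gene came from spheroids of 4T1 cells, a murine breast cancer line of BALB/c origin, grown by the hanging drop method. One group was transduced with a lentivirus for a short hairpin RNA against Tlr7 (shTlr7, n = 4 libraries). The other carried a lentivirus for a scrambled hairpin (shCtrl, n = 4 libraries). Tlr7 encodes an endosomal sensor of single-stranded RNA, and the comparison asks which transcripts of these cancer cells differ once it is targeted. The labels give each group a single hairpin name and no clone, so effects of the hairpin other than those on Tlr7 cannot be told apart from effects of Tlr7. Nothing in them ties the 4 libraries of a group to separate cultures. The p-values therefore cover the spread between these samples alone, and that spread may be technical.

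Semaphorins are secreted or membrane-bound proteins with a shared Sema domain. Plexins are their transmembrane receptors, whose cytoplasmic part acts on small GTPases and thereby on adhesion and the cytoskeleton. Most class 3 semaphorins, which are secreted, need a neuropilin beside a plexin of the A type, and neuropilins also bind growth factors of the VEGF family. First described as cues for growing axons, these proteins are also known to act on blood vessels, immune cells and the movement of carcinoma cells.

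Total counts ranged from 18.1 to 93.8 M in shTlr7 and from 19.2 to 51.5 M in shCtrl libraries. Tlr7 itself had 0, 4, 3 and 0 counts in shTlr7 replicates 1 to 4, and 2, 3, 2 and 2 counts in shCtrl replicates 1 to 4. A knockdown was not detectable at this depth. Of 8 markers of mammary carcinoma epithelium, 7 passed the filter on low counts, and Krt5 was at 0 in every library. Their summed level was 4099 to 4381 CPM (counts per M reads counted, scaled by TMM) in shTlr7 and 5577 to 6051 CPM in shCtrl libraries. The 5 keratin genes tested were lower in shTlr7, by log2 fold changes from -0.37 (Krt8) to -3.50 (Krt14), while the adhesion genes Cdh1 and Epcam were higher, at 0.20 and 0.15 (edgeR adjusted p = 7.14e-04 and 0.0297). Of the 6 endothelial markers none passed the filter, and their sum stayed between 0.221 and 0.750 CPM over the 8 libraries. Among leukocyte markers Adgre1 was at 0 and the sum was 31.3 to 44.4 CPM in shTlr7 against 23.2 to 28.1 CPM in shCtrl, nearly all of it from Cd68. Cd68 was higher, at 38.5 CPM in shTlr7 and 23.4 CPM in shCtrl (log2 fold change 0.72, edgeR adjusted p = 1.41e-04). The other leukocyte marker that passed the filter, Csf1r, was lower, at 0.241 CPM in shTlr7 and 1.14 CPM in shCtrl (log2 fold change -2.17, edgeR adjusted p = 4.39e-06). Fibroblast markers summed to 43.1 to 48.0 CPM in shTlr7 and 43.9 to 45.3 CPM in shCtrl, with Col3a1 at 0. Nearly all of this sum came from Pdgfra (means of 43.6 CPM in shTlr7 and 42.3 CPM in shCtrl). Besides Pdgfra only Col1a1 passed the filter, at 1.64 CPM in shTlr7 and 2.22 CPM in shCtrl. Neuronal markers summed to 21.3 to 25.7 CPM in shTlr7 and 9.33 to 10.8 CPM in shCtrl, mostly from Map2, with Snap25 at 0. The part of these other cell types' markers in the results was not tested. The library numbered 4 in each group stood apart from its group on the second principal component of the 1000 most variable genes (4.85% of the variance). Members whose call changed when these 2 libraries were left out (Sema3c, Sema4g and Plxna3) are therefore given both ways.

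The cells expressed a broad set of the family, and more members were lower than higher in shTlr7 spheroids. Of the 31 genes, 23 passed edgeR's filter on low counts. Among them 2 were higher in shTlr7, the secreted ligand Sema3e and the co-receptor Nrp1, and 13 were lower (edgeR quasi-likelihood test, adjusted p under 0.05 over all 13393 genes tested). Of all genes tested, 29.3% were called higher and 26.8% lower, 56.1% in all, so the share of members called either way, 65.2%, lay near the background. The share called lower was 56.5%. With library size as the only scaling, which moved the median log2 fold change of all genes up by 0.10, the split was 4 higher and 12 lower. Without both libraries numbered 4 it was 3 higher and 15 lower. The median log2 fold change of the 23 genes was -0.38, beside 0.01 over all genes tested. At least a 2-fold difference was found for 5 called members (Sema3e higher, and Sema3a, Sema6a, Sema6d and Sema7a lower), where 7.52% of all genes tested passed both limits. CPM values of the 2 groups were without overlap in 14 of the 23 members, against 49.8% of all genes tested. Fewer cells with a transcript and less RNA of it per cell cannot be told apart in these bulk libraries.

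**Figure D1:**
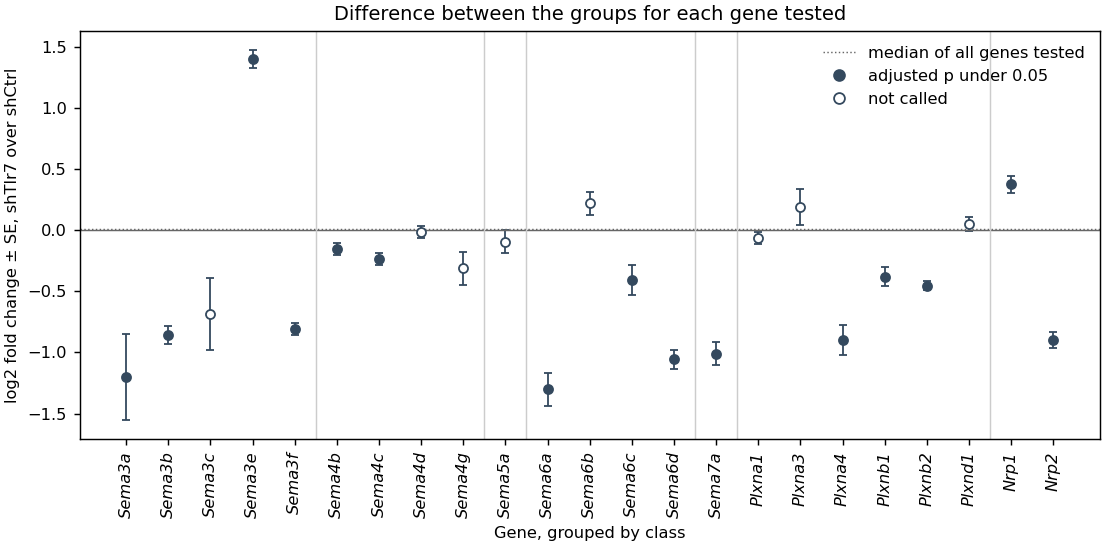
Log2 fold change of shTlr7 over shCtrl spheroids (vertical axis, points with SE bars, 4 libraries per group) for the 23 members tested, by class along the horizontal axis; filled points had an edgeR adjusted p under 0.05. Sema3e at 1.40 and Nrp1 at 0.37 are the filled points above 0, and 13 filled points lie below it.

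Levels of different genes were compared only per length, as CPM per kilobase of merged exons of the gene (GENCODE M21, GRCm38). On this scale the receptor Plxnb2, the ligand Sema3f and the co-receptor Nrp2 led the family in both groups. Plxnb2 had 55.6 ± 1.75 CPM per kilobase in shTlr7 and 76.1 ± 0.782 in shCtrl (SD, n = 4 each). Sema3f had 42.0 ± 1.89 in shTlr7 and 73.6 ± 4.09 in shCtrl, and Nrp2 33.5 ± 3.10 in shTlr7 and 62.4 ± 3.41 in shCtrl. In shCtrl the values of Plxnb2 and Sema3f lay within their spread of each other. Plxna1, Sema4c, Plxnb1 and Sema4b followed, between 15.8 and 20.9 CPM per kilobase in shTlr7 and between 17.6 and 25.6 in shCtrl. Sema3a, at 0.0251 CPM per kilobase in shTlr7 and 0.0634 in shCtrl, was the lowest of the 23. Merged exons include rarely used ones. With the length of 1 coding transcript per gene instead, Sema3f came first in both groups and Plxnb2 took place 2 in shTlr7 and place 3 in shCtrl, while Nrp2 stayed among the first 3.

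**Figure D2:**
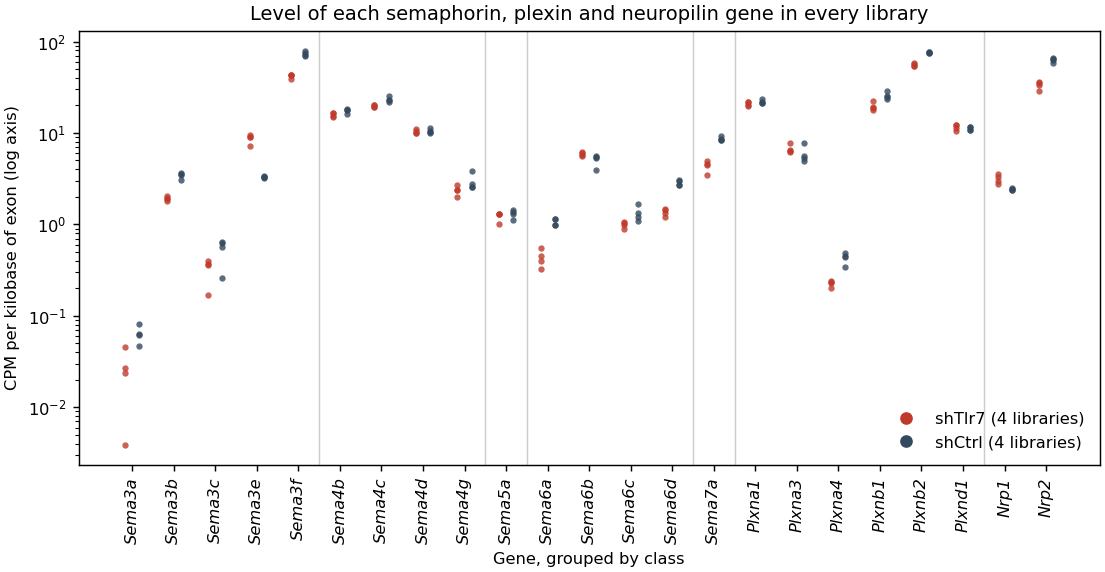
CPM per kilobase of exon (log axis) of the 23 members tested in each of the 4 shTlr7 and 4 shCtrl libraries (1 point per library), grouped by class. Levels span from Sema3a, at a mean of 0.0251 in shTlr7 and 0.0634 in shCtrl, to Plxnb2, at 55.6 in shTlr7 and 76.1 in shCtrl.

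The 8 members not tested were Sema3d, Sema3g, Sema4a, Sema4f, Sema5b, Plxna2, Plxnb3 and Plxnc1. None of them reached 1 CPM in any library, and the highest single value was 0.399 CPM. Sema5b and Sema4f had no count in any of the 8 libraries. For Sema5b this allows up to 0.0172 CPM over the pooled shTlr7 libraries and 0.0262 CPM over the pooled shCtrl libraries, taking 3 counts as the limit and counting error only. For Sema4f no limit is given, because the table has a further copy of this gene, also at 0, and reads that fit both rows may have been discarded. Plxnc1, the receptor of Sema7a, had 23 counts in all in shTlr7 and 29 in shCtrl. The pooled depth was unequal, and these counts are 0.132 CPM in shTlr7 and 0.253 CPM in shCtrl. Without a filter on low counts Plxnc1 was not called (log2 fold change -0.99 ± 0.47, SE; edgeR adjusted p = 0.0968). Sema4a, a membrane-bound ligand known from immune cells, had 0, 20, 14 and 4 counts in shTlr7 replicates 1 to 4 and 1, 4, 1 and 2 counts in shCtrl replicates 1 to 4. It was above the threshold only where no filter on low counts was applied (log2 fold change 1.499 ± 0.57, SE; edgeR adjusted p = 0.0305), a setting in which 32.5% of 24860 genes were called.

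The start regions of 4 genes with clear differences are given here: Sema3e, the ligand that rose, Sema7a, a ligand that fell, and the neuropilin genes Nrp1 and Nrp2, which differed in opposite directions. Each runs from 250 bases before to 50 bases after an annotated start (RefSeq, GRCm38.p6), on the plus strand, and 26 of the 31 members have an entry. Capitals mark GC boxes, searched as GGGCGG on both strands, where neighbouring boxes may overlap. The windows are chr5:14025026-14025325 for Sema3e, chr9:57939862-57940161 for Sema7a, chr8:128358823-128359122 for Nrp1 and chr1:62703067-62703366 for Nrp2. Those of Sema7a and Nrp1 lie wholly inside the genes, whose positions begin at 57939596 and 128358591. They thus surround a start within the gene and not its first base.
Sema3e: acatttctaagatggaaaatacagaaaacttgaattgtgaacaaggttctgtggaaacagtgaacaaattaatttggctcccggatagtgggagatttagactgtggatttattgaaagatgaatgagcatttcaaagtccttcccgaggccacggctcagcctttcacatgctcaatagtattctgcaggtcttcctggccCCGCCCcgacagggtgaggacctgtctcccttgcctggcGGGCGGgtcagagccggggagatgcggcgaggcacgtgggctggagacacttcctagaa
Sema7a: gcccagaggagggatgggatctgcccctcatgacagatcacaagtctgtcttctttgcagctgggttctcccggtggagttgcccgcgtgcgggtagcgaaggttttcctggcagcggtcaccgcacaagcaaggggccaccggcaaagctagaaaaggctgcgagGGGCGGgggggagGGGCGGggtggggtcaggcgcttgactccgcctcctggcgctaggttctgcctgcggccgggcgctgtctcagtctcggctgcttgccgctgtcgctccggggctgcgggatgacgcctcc
Nrp1: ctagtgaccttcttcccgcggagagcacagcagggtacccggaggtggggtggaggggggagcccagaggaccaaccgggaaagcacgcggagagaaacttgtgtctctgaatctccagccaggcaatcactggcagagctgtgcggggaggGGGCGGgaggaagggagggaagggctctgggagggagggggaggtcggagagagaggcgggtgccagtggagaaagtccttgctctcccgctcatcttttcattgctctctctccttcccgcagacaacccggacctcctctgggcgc
Nrp2: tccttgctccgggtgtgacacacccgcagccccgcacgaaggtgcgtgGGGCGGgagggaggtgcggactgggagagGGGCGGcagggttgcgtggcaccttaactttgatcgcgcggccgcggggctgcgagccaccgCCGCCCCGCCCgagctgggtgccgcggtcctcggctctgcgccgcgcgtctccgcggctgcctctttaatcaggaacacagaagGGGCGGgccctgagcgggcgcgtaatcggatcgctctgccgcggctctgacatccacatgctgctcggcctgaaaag
GC boxes numbered 2 in Sema3e, 2 in Sema7a, 1 in Nrp1 and 5 in Nrp2, and 35.7% of all 32851 RefSeq promoter windows hold at least 1. CpG dinucleotides numbered 11 in Sema3e, 23 in Sema7a, 14 in Nrp1 and 37 in Nrp2, beside a median of 7 over all windows. A TATA box (TATAAA, both strands) occurs in none of these 4 windows and in 13.6% of all windows.

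Sema3e is the class 3 semaphorin that binds the receptor Plxnd1 directly and can act without a neuropilin. Among the 23 members tested it showed the largest log2 fold change in either direction in the fit over all libraries. The gene lies on chromosome 5, from 14025276 to 14256689 (GRCm38.p6). Its CPM was 84.8, 83.0, 87.4 and 67.5 in shTlr7 replicates 1 to 4, and 29.8, 30.5, 30.3 and 31.5 in shCtrl replicates 1 to 4. Every shTlr7 library was above every shCtrl library, and shTlr7 replicate 4 was the lowest of its group. The mean was 80.7 ± 8.95 CPM in shTlr7 and 30.5 ± 0.706 CPM in shCtrl (SD, n = 4 each), a 2.64-fold difference with a log2 fold change of 1.40 ± 0.07 (SE; edgeR adjusted p = 6.53e-09). By level per kilobase it moved to place 10 of the 23 members in shTlr7, against place 14 in shCtrl. Without both libraries numbered 4 the log2 fold change was 1.48.

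The other class 3 ligands that were called were lower in shTlr7. Sema3f, a ligand that prefers Nrp2 and is known to repel endothelial and tumour cells, had 223, 222, 204 and 225 CPM in shTlr7 replicates 1 to 4, against 386, 360, 375 and 410 CPM in shCtrl replicates 1 to 4. The groups were far apart, and the log2 fold change was -0.81 ± 0.05 (SE; edgeR adjusted p = 1.63e-08). Sema3b, a neighbour of Sema3f on chromosome 9 and a ligand of the same kind, had 9.65, 8.96, 9.24 and 8.66 CPM in shTlr7, against 17.6, 16.8, 14.7 and 16.7 CPM in shCtrl. It differed about as much as Sema3f, at -0.86 ± 0.07 (SE; edgeR adjusted p = 5.90e-07). Sema3a, the founding axon repellent that prefers Nrp1, had only 1, 32, 13 and 19 counts in shTlr7 and 16, 32, 22 and 20 counts in shCtrl. Its log2 fold change of -1.20 ± 0.35 (SE; edgeR adjusted p = 0.0104) rests on few reads, and with all libraries thinned to the smallest total it was -0.83 with an edgeR adjusted p of 0.293. Sema3c, a ligand of either neuropilin, had 2.63, 2.55, 2.82 and 1.21 CPM in shTlr7, against 4.42, 4.07, 4.64 and 1.86 CPM in shCtrl. Replicate 4 was the lowest library of each group, and the fit over all libraries gave -0.69 ± 0.30 (SE; edgeR adjusted p = 0.0724). Without both libraries numbered 4 the log2 fold change was -0.71 with an edgeR adjusted p of 3.57e-05.

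These opposite differences changed the make-up of the class 3 ligands. Sema3e held 16.8%, 16.6%, 18.4% and 13.8% of the class's summed CPM per kilobase in shTlr7 replicates 1 to 4, against 3.92%, 4.29%, 4.12% and 3.94% in shCtrl replicates 1 to 4. Sema3f held 79.3% ± 2.26 in shTlr7 and 90.9% ± 0.557 in shCtrl (SD, n = 4 each), so it remained the main class 3 transcript in all 8 libraries. The summed level of the class was 53.0 ± 1.49 CPM per kilobase in shTlr7 and 80.9 ± 4.05 in shCtrl. These shares are descriptions of the members and carry no test. They also depend on the gene length used. Per kilobase of 1 coding transcript, Sema3e had 11.8 CPM in shTlr7 and 4.45 in shCtrl, and Sema3f 91.7 in shTlr7 and 161 in shCtrl.

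**Figure D3:**
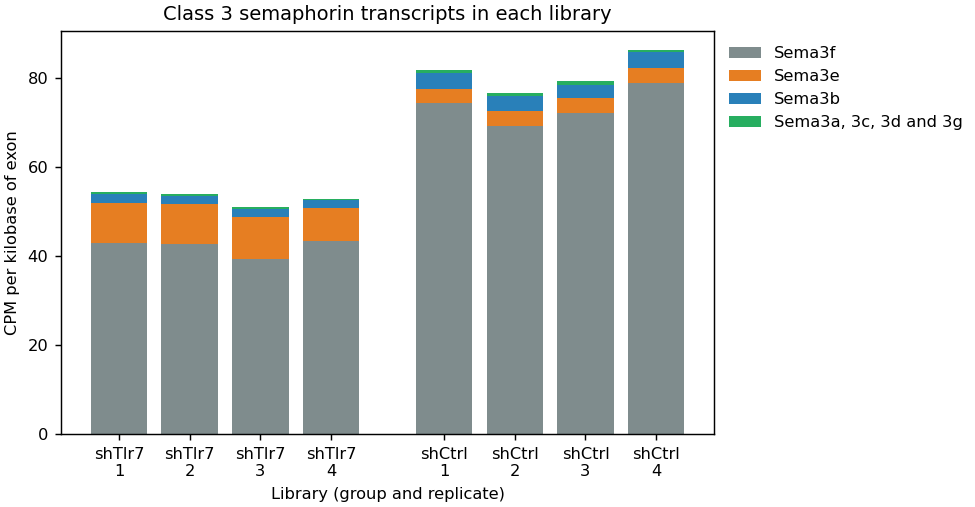
Stacked CPM per kilobase of exon of the class 3 semaphorins in each library, shTlr7 replicates 1 to 4 on the left and shCtrl replicates 1 to 4 on the right. The Sema3e layer is thicker in every shTlr7 library (13.8% to 18.4% of the stack) than in any shCtrl library (3.92% to 4.29%), while the Sema3f layer and the whole stack are lower.

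Class 4 semaphorins, membrane-bound ligands of which several bind plexins of the B type, differed little. Sema4c, a ligand of Plxnb2, had 90.5 ± 3.13 CPM in shTlr7 and 107 ± 6.28 CPM in shCtrl (SD, n = 4 each), a log2 fold change of -0.24 ± 0.05 (SE; edgeR adjusted p = 9.86e-04). Sema4b had 89.2 ± 3.84 CPM in shTlr7 and 99.4 ± 5.15 CPM in shCtrl, and its groups overlapped. Its log2 fold change of -0.15 ± 0.05 (SE; edgeR adjusted p = 0.0154) was no longer past the threshold with library size as the only scaling, at -0.050, or with thinned libraries, at -0.15 (edgeR adjusted p = 0.0532). Sema4d, the ligand of Plxnb1 known from lymphocytes and tumour angiogenesis, had 80.7, 77.1, 77.1 and 84.3 CPM in shTlr7, against 78.5, 80.0, 76.2 and 87.7 CPM in shCtrl. The 95% interval of its log2 fold change ran from -0.14 to 0.11, so a difference beyond these bounds was not seen. Sema4g, also known as a ligand of Plxnb2, had 20.7, 20.8, 17.5 and 23.1 CPM in shTlr7, against 22.2, 22.5, 24.0 and 33.5 CPM in shCtrl. In each group replicate 4 was the highest library. The fit over all libraries gave -0.31 ± 0.14 (SE; edgeR adjusted p = 0.0740), and without both libraries numbered 4 it gave -0.22 with an edgeR adjusted p of 0.00808. Sema5a, a membrane-bound ligand with thrombospondin repeats, had 22.8 ± 2.73 CPM in shTlr7 and 24.4 ± 2.47 CPM in shCtrl, with an interval of the log2 fold change from -0.32 to 0.13.

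In classes 6 and 7, 4 of the 5 ligands tested were lower in shTlr7, where 26.8% of all genes tested were lower, and Sema6a had the largest fall of the family in the fit over all libraries. Sema6a, a transmembrane ligand of A-type plexins, had 2.84, 3.47, 3.94 and 4.87 CPM in shTlr7 replicates 1 to 4, against 8.63, 9.96, 10.1 and 8.62 CPM in shCtrl replicates 1 to 4. The groups were clearly separate, with a 2.47-fold lower level in shTlr7 and a log2 fold change of -1.30 ± 0.13 (SE; edgeR adjusted p = 2.51e-06). Sema6d, a ligand of Plxna1, had 13.9, 15.3, 12.8 and 15.6 CPM in shTlr7, against 28.3, 28.4, 31.8 and 32.2 CPM in shCtrl. It fell by 1.06 ± 0.08 on the log2 scale (SE; edgeR adjusted p = 8.62e-08). Sema7a, a ligand anchored in the membrane by GPI that binds Plxnc1 and the integrin chain encoded by Itgb1, had 15.0, 11.5, 16.4 and 14.6 CPM in shTlr7, against 27.3, 28.0, 28.2 and 30.8 CPM in shCtrl. Its lowest shCtrl library was well above its highest shTlr7 library, and the log2 fold change was -1.01 ± 0.10 (SE; edgeR adjusted p = 1.85e-06). Sema6c was lower too, at 5.93 ± 0.455 CPM in shTlr7 and 7.87 ± 1.44 CPM in shCtrl (log2 fold change -0.41 ± 0.12, SE; edgeR adjusted p = 0.0111), but with thinned libraries its edgeR adjusted p was 0.0805. Sema6b had 22.0, 24.8, 23.8 and 22.5 CPM in shTlr7, against 22.0, 21.4, 21.4 and 15.5 CPM in shCtrl, and was not called (0.22 ± 0.10, SE; edgeR adjusted p = 0.0688). It passed the threshold with library size as the only scaling (0.32, adjusted p = 0.0102), with thinned libraries (0.28, adjusted p = 0.0229), without a filter on low counts (0.24, adjusted p = 0.00814) and in limma-voom (0.24, adjusted p = 0.0427), and without both libraries numbered 4 it was at 0.13 (adjusted p = 0.0725). Over the class 6 genes the summed CPM per kilobase was 8.66 ± 0.360 in shTlr7 and 10.3 ± 0.484 in shCtrl. Sema6b had the highest level of the class in both, at 5.86 ± 0.321 in shTlr7 and 5.06 ± 0.776 in shCtrl.

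The neuropilin genes differed in opposite directions. Nrp2, on chromosome 1 from 62703317 to 62818692, is the co-receptor preferred by Sema3f and the VEGF-C protein. It had 426, 401, 417 and 344 CPM in shTlr7 replicates 1 to 4, against 740, 756, 777 and 683 CPM in shCtrl replicates 1 to 4. The highest shTlr7 library had well under the level of the lowest shCtrl library, and the log2 fold change was -0.90 ± 0.06 (SE; edgeR adjusted p = 1.49e-07). Nrp1, on chromosome 8 from 128358591 to 128505476, is the co-receptor preferred by Sema3a and VEGF-A. Its CPM was 34.8, 32.2, 27.4 and 29.1 in shTlr7, against 23.5, 23.2, 24.4 and 24.0 in shCtrl. All shTlr7 libraries were above all shCtrl libraries, though the shTlr7 libraries were more spread, and the log2 fold change was 0.37 ± 0.07 (SE; edgeR adjusted p = 5.28e-04). Per kilobase, Nrp1 stood at 0.0987, 0.0970, 0.0795 and 0.102 of Nrp2 in shTlr7 replicates 1 to 4, against 0.0383, 0.0372, 0.0380 and 0.0426 in shCtrl replicates 1 to 4. Nrp2 thus remained the main neuropilin transcript in both groups, at 91.4% ± 0.855 of their sum in shTlr7 and 96.2% ± 0.226 in shCtrl (SD, n = 4 each). These proportions depend on the gene length used. Per kilobase of 1 coding transcript, Nrp1 had 8.58 CPM beside 62.5 for Nrp2 in shTlr7, and 6.61 beside 116 in shCtrl.

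**Figure D4:**
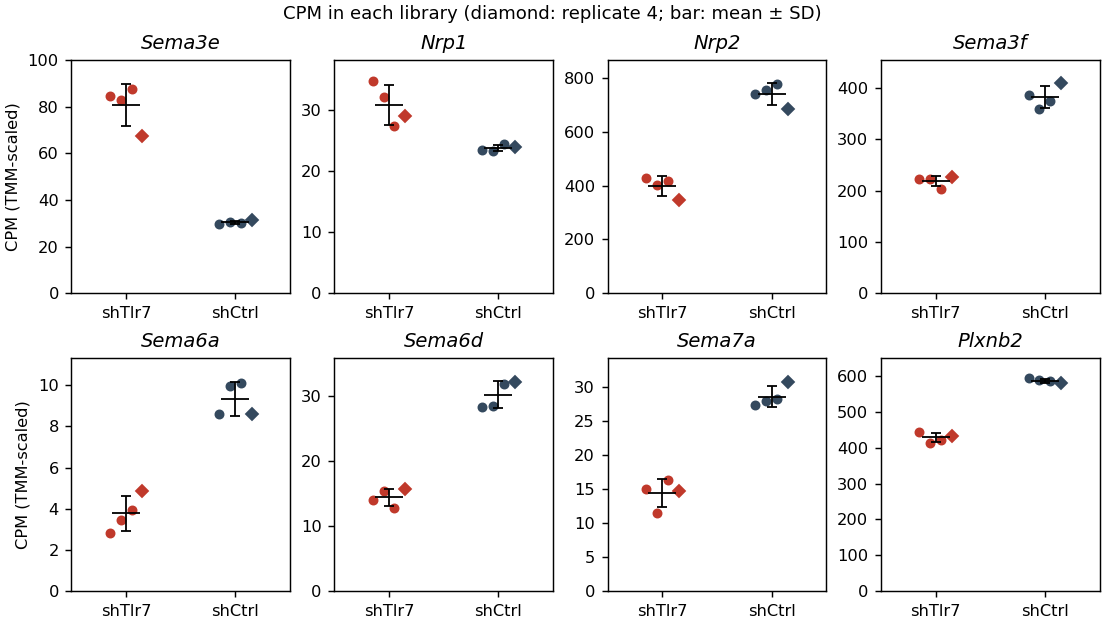
TMM-scaled CPM in each of the 4 shTlr7 libraries (left in each panel) and 4 shCtrl libraries (right) for 8 members, with mean and SD as bars and replicate 4 as a diamond. The 8 are a selection of called members, and in all 8 panels the groups do not overlap. Such separation held for 14 of the 23 members tested and 49.8% of all genes tested. The shTlr7 values lie above shCtrl for Sema3e and Nrp1 and below it for Nrp2, Sema3f, Sema6a, Sema6d, Sema7a and Plxnb2.

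Of the 6 plexins tested, 3 were lower: the B-type receptors Plxnb1 and Plxnb2 and the A-type receptor Plxna4. None was called higher in the fit over all libraries, where 26.8% of all genes tested were lower and 29.3% higher. With 6 genes, a direction of the plexins as a group cannot be read from these counts. Plxnb2 had 445, 415, 422 and 433 CPM in shTlr7 replicates 1 to 4, against 594, 589, 586 and 580 CPM in shCtrl replicates 1 to 4. The spread within a group was small beside the difference, with a log2 fold change of -0.45 ± 0.04 (SE; edgeR adjusted p = 3.76e-07). Plxnb1, the receptor of Sema4d, had 185, 172, 182 and 215 CPM in shTlr7, against 239, 223, 243 and 277 CPM in shCtrl. Replicate 4 was the highest library of each group, and the groups did not overlap (-0.38 ± 0.08, SE; edgeR adjusted p = 0.00137). Plxna4, a receptor in Sema3a and Sema6a signalling, was at a low 3.20 ± 0.246 CPM in shTlr7 and 6.05 ± 0.862 CPM in shCtrl (-0.90 ± 0.12, SE; edgeR adjusted p = 3.00e-05).

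The other plexins tested were not called. Plxnd1, the receptor of Sema3e, had 89.98, 88.1, 77.3 and 83.1 CPM in shTlr7, against 84.6, 79.5, 77.8 and 85.1 CPM in shCtrl. The groups overlapped, and the 95% interval of the log2 fold change ran from -0.08 to 0.18. With library size as the only scaling Plxnd1 passed the threshold at 0.15 (edgeR adjusted p = 0.0249). Per kilobase, the Sema3e transcript therefore stood at 0.741, 0.740, 0.889 and 0.639 of that of its receptor in shTlr7 replicates 1 to 4, against 0.277, 0.302, 0.307 and 0.291 in shCtrl replicates 1 to 4. This ratio depends on the gene length used. Per kilobase of 1 coding transcript, Sema3e had 11.8 CPM beside 12.3 for Plxnd1 in shTlr7, and 4.45 beside 11.8 in shCtrl. Plxna1, a receptor subunit shared by Sema3 ligands and Sema6d, had 190 ± 9.34 CPM in shTlr7 and 198 ± 10.4 CPM in shCtrl, with an interval from -0.18 to 0.05, and 10.7% of its exon bases overlap another annotated gene. Plxna3, which works with Nrp2 in Sema3f signalling, had 50.6, 51.1, 49.2 and 61.6 CPM in shTlr7, against 38.7, 42.3, 43.7 and 62.0 CPM in shCtrl. Replicate 4 was the highest in each group, and over all libraries the gene was not called (0.19 ± 0.15, SE; edgeR adjusted p = 0.310). Without both libraries numbered 4 it was higher in shTlr7 by 0.27 (edgeR adjusted p = 8.75e-05). The summed plexin level was 115 ± 4.75 CPM per kilobase in shTlr7 and 141 ± 4.35 in shCtrl, and that of the neuropilins 36.7 ± 3.25 in shTlr7 and 64.8 ± 3.41 in shCtrl.

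Genes that act around the receptors were taken from lists of 64 genes, of which 51 passed the filter on low counts. Of these 17 were higher and 20 lower in shTlr7, or 72.5% called against 56.1% of all genes tested, with a median log2 fold change of -0.02. Among co-receptors and other receptors, 4 of 8 tested were higher and 2 lower (29.3% and 26.8% over all genes tested). The Sema7a receptor chain Itgb1 had 1233 ± 53.2 CPM in shTlr7 and 1689 ± 98.1 CPM in shCtrl, and its partner Itga1 45.3 ± 5.52 CPM in shTlr7 and 24.5 ± 2.31 CPM in shCtrl (SD, n = 4 each). Their log2 fold changes were -0.45 and 0.88. The receptor-like kinase Ptk7 was lower, at -0.28, and the adhesion molecule Nrcam higher, at 1.24 from a low level of 1.40 CPM in shTlr7 against 0.558 CPM in shCtrl. The VEGF receptor gene Kdr had 0 counts in shTlr7 and 2 in shCtrl. Another VEGF receptor gene, Flt1, had 107 CPM in shTlr7 and 101 CPM in shCtrl and was not called (0.072; edgeR adjusted p = 0.321). Of 5 other neuropilin ligands tested, 3 were lower: the VEGF genes Vegfc by a log2 fold change of -1.43, Vegfa of -0.96 and Vegfb of -0.20. Pgf, also of the VEGF family, had 7.15 CPM in shTlr7 and 6.88 CPM in shCtrl and was not called (0.068; edgeR adjusted p = 0.701). Tgfb1 was higher, at 0.23.

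The intracellular partners and the proteases went both ways, and their counts are to be read against the 29.3% of all genes tested that were higher and the 26.8% that were lower. Of 19 GTPases, their regulators and plexin-binding proteins, 5 (26.3%) were higher and 8 (42.1%) lower, none by 2-fold. Gipc1, an adaptor that binds neuropilins and plexins, had 144 ± 5.57 CPM in shTlr7 and 97.7 ± 4.11 CPM in shCtrl, a log2 fold change of 0.56 ± 0.04 (SE; edgeR adjusted p = 2.31e-07). The GTPase gene Mras had a log2 fold change of -0.47, the exchange factor gene Farp1 of -0.37 and the Ras inactivator gene Rasa1 of -0.33. Of 12 cytoskeletal effectors and kinases tested, 4 (33.3%) were higher and 4 lower. Limk1, a kinase of cofilin, had a log2 fold change of 0.68, the Src family kinase Fyn of 0.45 and Dpysl5 of 1.07, while Dpysl2, the collapsin response mediator of axons, had one of -0.40. Of 7 proteases tested, 3 (42.9%) were higher and 3 lower. Mmp14, which can shed Sema4d from the membrane, had 354 ± 8.02 CPM in shTlr7 and 782 ± 15.7 CPM in shCtrl, a log2 fold change of -1.14. Furin, which cuts class 3 semaphorins at basic sites, had one of -0.30, and the related convertases Pcsk7 and Pcsk6 of 0.60 and 0.41. The 20 partner genes given here as higher or lower had edgeR adjusted p between 5.63e-11 and 0.00589.

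**Figure D5:**
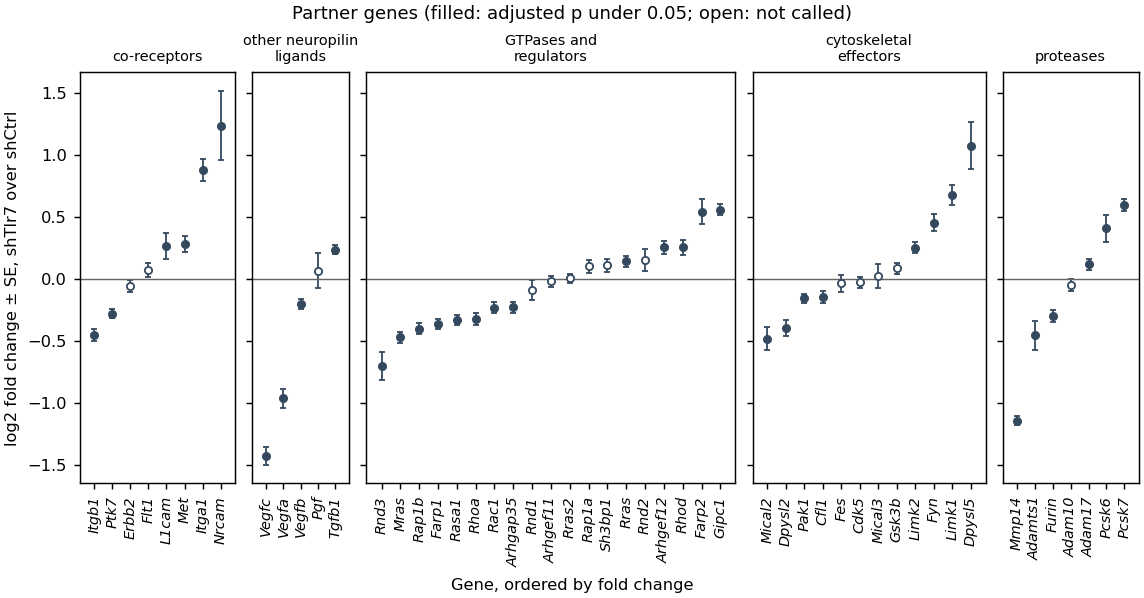
Log2 fold change of shTlr7 over shCtrl with SE bars for the 51 partner genes tested, in 5 lists and ordered by fold change within each (filled points: edgeR adjusted p under 0.05). Vegfc at -1.43 and Mmp14 at -1.14 are the lowest points, and Nrcam at 1.24 and Dpysl5 at 1.07 the highest.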

How the data were processed

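RNA-seq was available for 8 libraries of 4T1 spheroids, 4 of shTlr7 and 4 of shCtrl, grouped and numbered by sample title. The file that the authors deposited holds whole-number counts of reads for each gene, not normalized. Per the submitters' processing notes, STAR 2.7.5, DESeq2 1.32.0 and the build GRCm38 were used. How reads were counted, and with which strand setting, is not given in the sources used here. Reads of overlapping genes cannot be told apart. Exons of Plxna1 and Sema4c overlap other genes over more than 5% of their bases, and those of the other 29 members over at most 2.68%.

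The whole table was fitted with edgeR 4.0.16 (R 4.3.3): filterByExpr by group (13393 genes), TMM scaling, robust glmQLFit and glmQLFTest on a model of group alone, and Benjamini-Hochberg adjustment over all genes tested. Standard errors are the log2 fold change over the square root of F, and 95% intervals use 6 residual degrees of freedom. The fit was tested on simulated data. CPM uses TMM-scaled library sizes. Gene positions come from RefSeq (GRCm38.p6) and exon lengths from GENCODE M21, all 31 members matched. Named genes are all members, Tlr7 and the 4 partners of each list with the lowest p. The other partners named (Kdr, Flt1 and Pgf) were chosen after their values were seen. So were the markers named: Epcam, Cdh1, Krt5, Krt8, Krt14, Adgre1, Cd68, Csf1r, Pdgfra, Col1a1, Col3a1, Map2 and Snap25. Members and lists were chosen with earlier results of these data known. Alternatives were RLE or library-size scaling, DESeq2 1.42.0, limma 3.58.1 (voom), other filters and thresholds, a replicate block, thinning, and leaving libraries out. No 2 libraries of a group agreed within sampling noise (chi-square per degree of freedom 2.23 to 21.9).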

Additional observations from a re-analysis of the deposited data

Results flagged for a closer look

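Among 88 sets of 4 libraries (43 genes and the library totals, in each group), 8 had 1 library far from the other 3, where chance gives about 1 in 20. In 7 of them that library was replicate 4, 3 times in shTlr7 and 4 times in shCtrl. In shTlr7, replicate 4 had 61.6 CPM of Plxna3 against 49.2 to 51.1 in the others, 1.21 CPM of Sema3c against 2.55 to 2.82, and 18.7 CPM of Sema5a against 24.0 to 24.4. In shCtrl, replicate 4 had 33.5 CPM of Sema4g against 22.2 to 24.0 in the others, and 15.5 CPM of Sema6b against 21.4 to 22.0. The partner genes Nrcam, with 0.398 CPM against 0.593 to 0.628, and Rasa1, with 156 CPM against 162 to 163, also stood apart in shCtrl replicate 4. By total counts, shCtrl replicate 2 held 51.5 M against 19.2 to 23.4 M in the other shCtrl libraries.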

How the results depend on the processing

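Of the 15 members called, Sema3e, Sema3b, Sema3f, Sema6a, Sema6d, Sema7a, Nrp2 and Plxna4 kept their direction and call in all 18 alternatives tried. Nrp1, Plxnb1, Plxnb2 and Sema4c lost their call only with a tested minimum difference of 1.5-fold and kept it in the other 17. Sema3a, Sema6c and Sema4b lost it there and also with thinned libraries. The counts called were 2 higher and 13 lower members, 17 higher and 20 lower partners, and 3927 higher and 3590 lower genes in all. A tested minimum difference of 1.5-fold left 1 and 7 members, 2 and 3 partners, and 472 and 666 genes, with fewer passing by construction. Higher members numbered 4 with library size only, 4 without a filter on low counts and 4 with the replicate block. Leaving out 1 library at a time gave 2 to 3 higher and 13 to 14 lower members, 14 to 17 higher and 19 to 20 lower partners, and 3476 to 4019 higher and 3220 to 3843 lower genes. Without shCtrl replicate 4, Plxna3 passed the threshold at 0.34 (edgeR adjusted p = 0.00165) and Sema3c at -0.90 (0.00202). Signs turned for uncalled genes only. With library size only, the log2 fold change was 0.040 for Plxna1, 0.088 for Sema4d and 0.0087 for Sema5a. That of Sema4d was 0.0033 without a filter, and between -0.049 and 0.017 when 1 library was left out, with 0.0021 without shTlr7 replicate 2, 9.34e-04 without shTlr7 replicate 3 and 0.017 without shCtrl replicate 4. The causes were not tested.

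Whether replicate numbers pair the libraries is not given by the labels. Deviations from the group means correlated at -0.0068, 0.11, 0.12 and 0.38 for numbers 1 to 4. Of the shTlr7 libraries, 2 of 4 correlated best with their own number. With 4 libraries per group these correlations can neither show nor exclude pairing. With the replicate block, 15 members were lower and Sema3c, Sema4g, Sema6b (0.23, edgeR adjusted p = 0.0146) and Plxna3 passed the threshold. Depth limits the statements on Sema3a, Sema6c and Sema4b, whose calls were lost in thinned libraries, and on the 8 members that did not pass the filter.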
